A study of Homo sapiens with 18 samples.

Results

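The genes described here are 10 of the type II classical cadherin genes: CDH6, CDH7, CDH8, CDH9, CDH10, CDH11, CDH12, CDH18, CDH19 and CDH20. They were taken by a rule that lists their names and holds no measured value, out of 19974 protein-coding genes measured, and all 10 were found. The rule describes them as lying in gene-poor regions of chromosomes 5, 16, 18 and 20. In the hg38 positions used here 5 lie on chromosome 5, 2 on chromosome 16 and 3 on chromosome 18, and none of the 10 lies on chromosome 20. The median member had 1 other protein-coding gene within 1 Mb (range 0 to 6), against a median of 23 over all genes.

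The study mapped H3K9me3 and H3K27me3 by ChIP-seq in U937 cells, a human myeloid line that the labels class as AML. The 3 genotypes are a control-guide population (sgControl), a SUV39H1 single knockout (SKO) and a SUV39H1/2 double knockout (DKO), each with 2 libraries per mark. SUV39H1 and SUV39H2 are enzymes that trimethylate lysine 9 of histone H3. SETDB1, another H3K9 methyltransferase, was mapped in 2 libraries of unedited (WT) U937 cells, and 4 input samples were not analysed here. The labels give 1 serum-supplemented medium for all cells and name no treatment. They do not say whether each knockout is 1 clone or a pool, nor whether replicates were separate cultures, so the spread between libraries, which the p-values measure, may be technical.

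Classical cadherins are calcium-dependent adhesion proteins that span the plasma membrane, bind a cadherin on the neighbouring cell and hold catenins at their cytoplasmic tail. The type II members are known chiefly from the nervous system, neural crest, kidney and mesenchyme, where their combinations sort cells and help to match synaptic partners. Blood cells grow without epithelial junctions, and genes of other lineages are commonly kept silent either by H3K27me3, which Polycomb complexes deposit, or by H3K9me3, the mark of constitutive heterochromatin. No RNA was measured in these files, so what follows concerns marks and not expression.

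The measure is the percent of a gene's body, from its first to its last annotated base, that lies inside the broad domains deposited for a library. In bulk chromatin a mark present in fewer cells and a mark that is weaker in each cell cannot be told apart. A call of lost or gained needed 2 things: no overlap between the genotypes' libraries, and a gap of 25 percentage points or more between the nearest of them. An exact test of 2 libraries against 2 cannot give a p below 0.333, so limma, fitted over all genes whose 6 values for a mark were not identical (7904 for H3K9me3, 3790 for H3K27me3) and adjusted by the Benjamini-Hochberg method, is given beside the calls. A gene rose, fell, gained or lost only where it passed the call.

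The start regions of 4 members whose domains carry the results are shown, as the 250 bases that precede the annotated start, 5′ to 3′ on the gene's own strand, from the RefSeq promoter table of GRCh38.p14. CDH7 and CDH19 were the members that lost H3K9me3, CDH9 was 1 of the pair that gained H3K27me3, and CDH8 kept H3K27me3 over its start in every library. The capitals mark the dinucleotide CG, which reads the same on both strands. The table held 8 of the 10 members, and CDH6 and CDH11 were not among them.
CDH7: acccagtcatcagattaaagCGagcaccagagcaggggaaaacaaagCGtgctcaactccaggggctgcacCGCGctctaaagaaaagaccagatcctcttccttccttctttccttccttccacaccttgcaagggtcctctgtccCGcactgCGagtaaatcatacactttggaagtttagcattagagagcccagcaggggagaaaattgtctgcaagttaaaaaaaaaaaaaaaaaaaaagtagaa
CDH19: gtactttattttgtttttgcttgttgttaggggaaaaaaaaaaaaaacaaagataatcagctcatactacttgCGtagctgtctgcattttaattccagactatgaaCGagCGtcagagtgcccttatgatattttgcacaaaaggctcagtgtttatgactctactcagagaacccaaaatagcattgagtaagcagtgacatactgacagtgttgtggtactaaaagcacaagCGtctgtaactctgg
CDH9: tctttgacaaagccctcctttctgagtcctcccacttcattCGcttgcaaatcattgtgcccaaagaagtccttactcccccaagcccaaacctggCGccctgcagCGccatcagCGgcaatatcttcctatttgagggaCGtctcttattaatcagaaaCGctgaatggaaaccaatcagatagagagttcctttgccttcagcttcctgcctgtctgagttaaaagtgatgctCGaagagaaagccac
CDH8: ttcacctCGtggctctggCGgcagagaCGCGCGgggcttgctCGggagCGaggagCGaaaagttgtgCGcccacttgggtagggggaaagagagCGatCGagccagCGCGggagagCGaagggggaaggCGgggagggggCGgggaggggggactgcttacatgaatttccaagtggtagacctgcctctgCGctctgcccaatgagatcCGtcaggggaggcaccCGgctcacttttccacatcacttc
The CDH7 sequence lies at chr18:65750002-65750251 on the plus strand, that of CDH19 at chr18:66604091-66604340, that of CDH9 at chr5:27038587-27038836 and that of CDH8 at chr16:62036439-62036688, the last 3 on the minus strand. CDH7 had 6 CG dinucleotides, CDH19 had 4, CDH9 had 7 and CDH8 had 19. Over 15808 promoters of the same length the median was 17, and 96.9% held at least 1. Of the other members in the table, CDH18 had 4, CDH20 had 7, and CDH10 and CDH12 had 10 each. CDH8 was thus the only one of these 8 above the median of all promoters, with a GC content of 64.0% against a median of 62.0%. CDH19 had 38.0%.

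In control cells most members were under H3K27me3, and the 3 on chromosome 18 also carried the most H3K9me3. CDH6, CDH9 and CDH10 instead had 0% H3K27me3 in control and mean H3K9me3 of 21.8%, 30.2% and 18.2%. Averaged over the 10 genes, H3K27me3 domains covered 63.2% ± 0.313 of the gene body in sgControl, 78.2% ± 1.16 in SKO and 76.0% ± 1.75 in DKO (SD, n = 2). H3K9me3 domains covered 31.5% ± 0.671, 9.83% ± 0.116 and 13.2% ± 2.40 of it. The same means over all genes were near level, at 16.6%, 16.1% and 16.2% for H3K9me3 and 15.1%, 15.0% and 15.5% for H3K27me3. Genes of at least 100 kb, a length every member exceeds, averaged 29.5%, 24.7% and 24.5% for H3K9me3 and 25.4%, 28.4% and 28.7% for H3K27me3. The members are part of both of these sets. Their total H3K9me3 length was 0.623 and 0.700 Mb in the sgControl libraries, 0.201 and 0.189 Mb in SKO, and 0.310 and 0.235 Mb in DKO, of 3.69 Mb of gene body, so the knockout libraries did not overlap the controls. The H3K27me3 averages rest on few genes, as the SKO difference was 100 points at CDH6, 54.2 at CDH9 and 10.6 at CDH18. At the others it lay between -11.1 and 2.79 points. By length, H3K27me3 covered 69.4% of the members' bodies in sgControl, 74.8% in SKO and 72.9% in DKO.

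**Figure D1:**
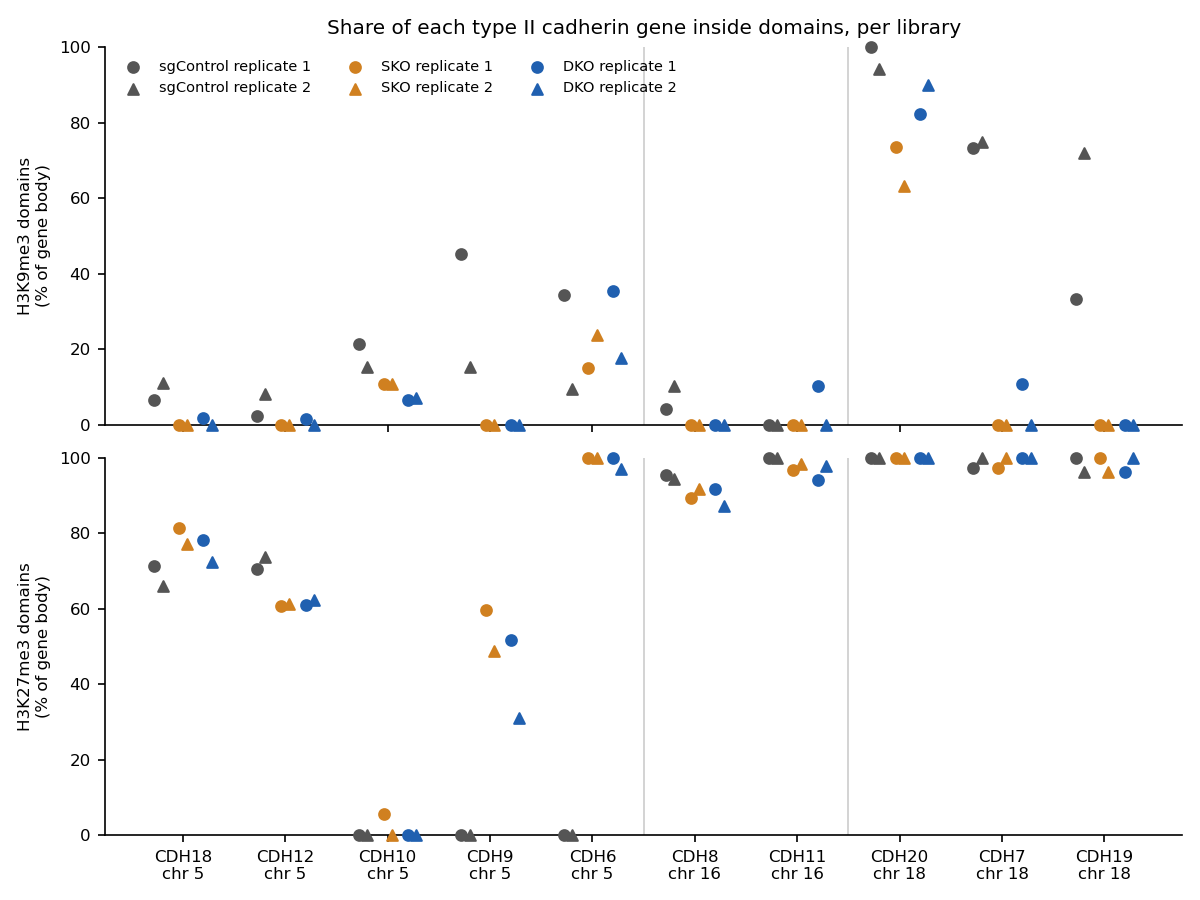
Percent of each gene body inside H3K9me3 domains (upper panel) and H3K27me3 domains (lower panel), 1 point per library, with circles for replicate 1 and triangles for replicate 2. Genes are ordered by position on chromosomes 5, 16 and 18. At CDH7 and CDH19 the points go from 33.1% or more to 10.9% or less in the upper panel, and at CDH6 and CDH9 from 0% to 31.0% or more in the lower.

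The files give reads only inside domains, 16.5 to 23.6 M (mega, as in Mb) per H3K9me3 library and 47.9 to 70.7 M per H3K27me3 library. H3K9me3 domains covered 1044 and 1013 Mb of the genome in sgControl against 754 to 795 Mb in the knockouts, and H3K27me3 domains 1058 and 1062 Mb against 1198 to 1225 Mb. The members' averages differ in the same direction as the whole lists. With all lists of a mark brought to equal length, CDH7 and CDH6 kept their calls and CDH19 and CDH9 did not. That step drops the lowest-scored domains until each list is as short as the shortest. It takes them mostly from the controls for H3K9me3 and mostly from the knockouts for H3K27me3. As a check of the cell type, 11 of 13 myeloid genes such as SPI1 and LYZ were free of both marks in both sgControl libraries of each mark, and 8 were free in every library. The exceptions in sgControl were ITGAM, at 61.5% and 53.9% H3K9me3, and PTPRC, at 14.1% and 8.08%. PTPRC and RUNX1 were called gained in H3K9me3 in SKO, and PTPRC and CD33 in DKO. Of the other lists, 7 of 8 T cell genes and 4 of 7 epithelial genes were also free in sgControl, so freedom from these marks does not mark the myeloid lineage alone. In these lists CD8A gained H3K9me3 in SKO and CD2 in DKO, and BCL11B lost H3K27me3 in both knockouts. GRHL2 lost H3K9me3 in both knockouts and KRT5 in SKO, and KRT5 was called higher in DKO than in SKO.

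H3K9me3 was lost at CDH7 and CDH19, neighbours on chromosome 18, in both knockouts. These 2 of 10 members compare with 4.5% of all genes called lost in SKO and 4.23% in DKO. Only 3 members had enough H3K9me3 in both control libraries to be called lost, and among genes of at least 100 kb with that much H3K9me3 the shares called were 30.0% and 29.8%. No member gained H3K9me3 in SKO or in DKO, where 4.11% and 3.84% of all genes did.

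CDH7, a cadherin of neural crest and spinal cord, lies at chr18:65750252-65890337. H3K9me3 covered 73.2% and 74.9% of its body in the sgControl libraries, 0% in both SKO libraries, and 10.9% and 0% in DKO. The groups were far apart, with a mean difference of -74.0 points in SKO (SE 4.16; limma adjusted p = 0.00178) and -68.6 points in DKO (SE 4.16; adjusted p = 0.00223). In control the mark lay there as 5 domains per library, the widest 40.8 and 36.8 kb, and the single DKO domain spanned 15.2 kb at chr18:65792801-65808000. H3K27me3 covered 97.1% to 100% of the gene in all 6 libraries of that mark.

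CDH19, known from Schwann cell precursors, lies 611 kb beyond it at chr18:66501083-66604090. Its H3K9me3 was 33.1% and 72.0% in sgControl and 0% in all 4 knockout libraries. The control libraries differed widely from each other, and although no library of a knockout overlapped them, limma gave an adjusted p of 0.0687 in SKO and 0.0739 in DKO for the mean difference of -52.6 points (SE 14.3). In the second sgControl library 1 domain of 121 kb crossed the start of the gene, while in the first the widest was 21.6 kb. H3K27me3 stayed between 96.1% and 100% in every library.

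At the start sites the picture was the same as over the bodies. In a window of 5 kb on either side of the CDH7 start, H3K9me3 covered 100% in both control libraries and 0% in all knockout libraries, with H3K27me3 at 100% throughout. For CDH19 the window was 34.9% and 100% covered in control and 0% in the knockouts, again with 100% H3K27me3. The sequences printed for these genes, with 6 and 4 CG dinucleotides, fall inside these windows.

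CDH20, the third member on chromosome 18 at chr18:61333430-61555779 and a close relative of CDH7, kept most of its H3K9me3. It was covered at 100% and 94.2% in sgControl, 73.5% and 63.2% in SKO, and 82.4% and 89.9% in DKO. The groups did not overlap, but the nearest control and SKO libraries differed by 20.8 points, short of the 25 points of the call. limma gave a difference of -28.8 points in SKO (SE 5.23; adjusted p = 0.0275), -11.0 in DKO (adjusted p = 0.229), and +17.8 for DKO against SKO (adjusted p = 0.182). Without sgControl replicate 2, CDH20 and CDH9 were also called lost in SKO, for 4 members in place of 2, and CDH9 in DKO, for 3. Without SKO replicate 1, CDH20 was again called.

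The domains over CDH20 also differed in relative read density. Relative to the mean read density over all domains of its own library, it stood at 1.14 and 1.04 in sgControl, 0.667 and 0.682 in SKO, and 0.828 and 0.818 in DKO. The SKO libraries lay lowest and DKO in between, and no library of one genotype overlapped those of another. The library mean used as the base comes from lists of unlike length, 1044 and 1013 Mb in sgControl against 754 to 795 Mb in the knockouts. How much of the separation this makes was not tested. The part missing from both SKO libraries and present in both controls was longest at chr18:61392801-61423200, 30.4 kb. H3K27me3 covered 100% of CDH20 in every library, so limma had no variation there to test.

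**Figure D2:**
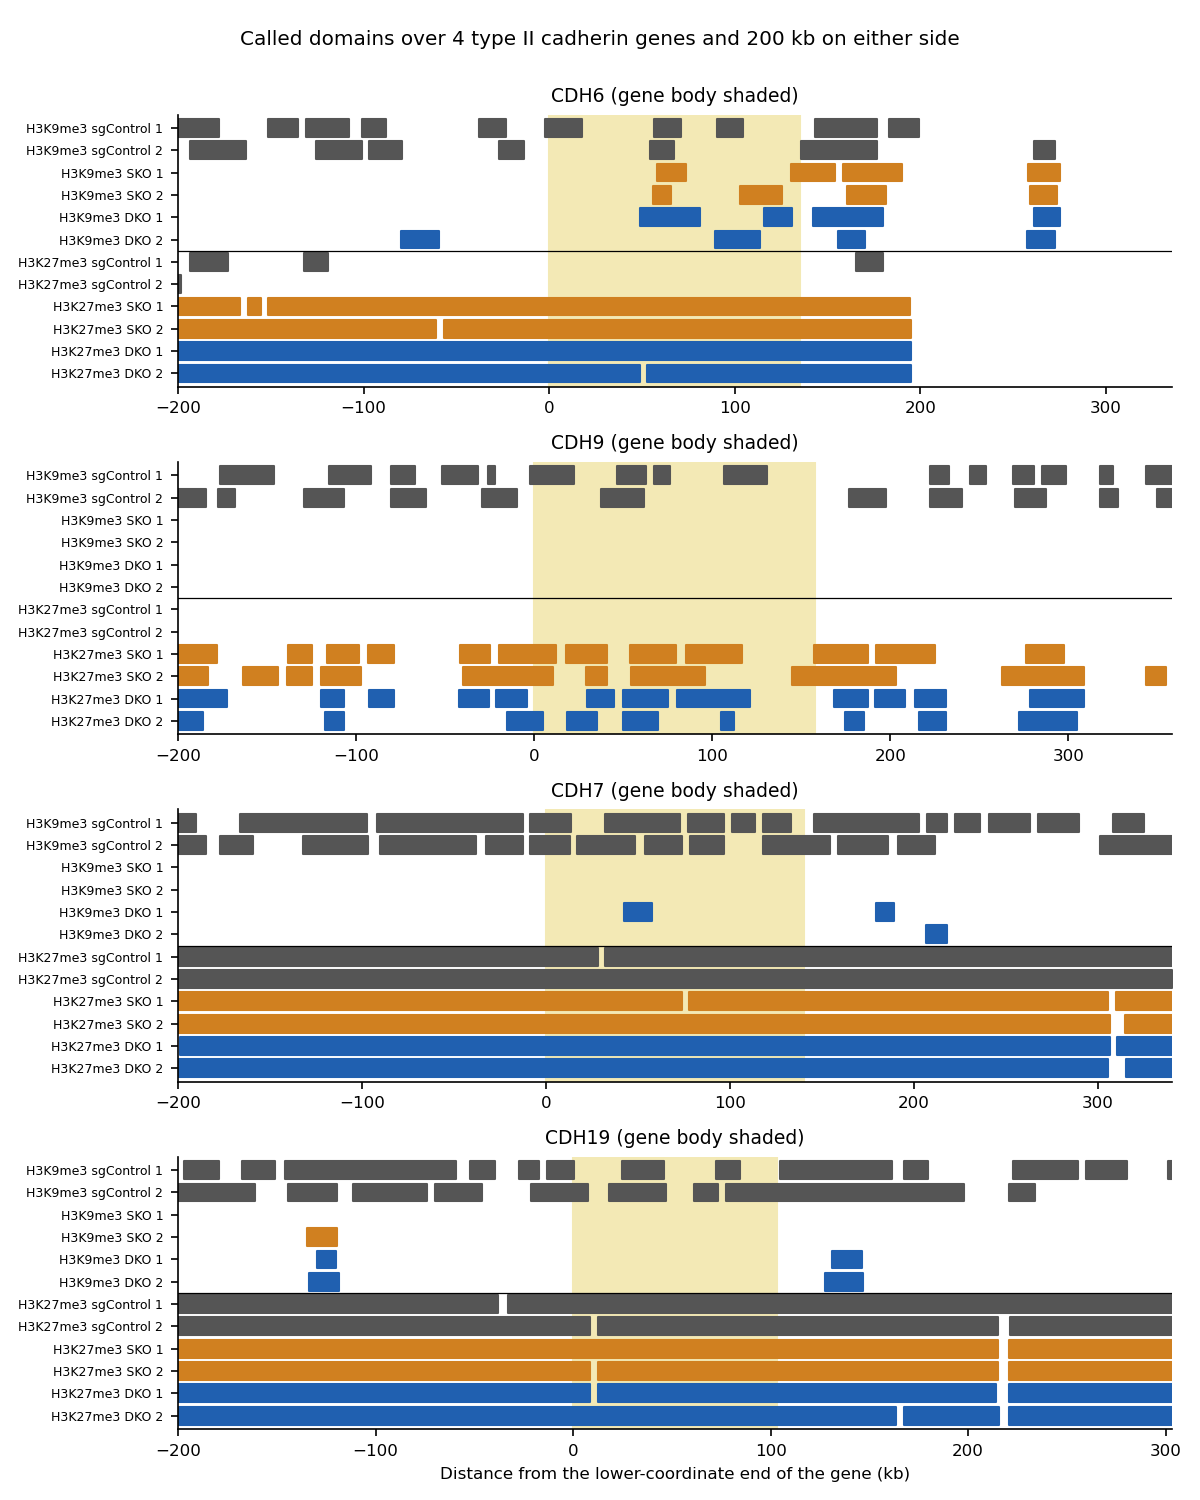
Domains as deposited for the 12 libraries over CDH6, CDH9, CDH7 and CDH19 with 200 kb on either side, plotted as distance in kb from the lower-coordinate end of each gene (shaded), with H3K9me3 above the line and H3K27me3 below it. CDH6 and CDH9 have no H3K27me3 domain over the gene in control cells and have them in all 4 knockout libraries, while over CDH7 and CDH19 H3K9me3 domains appear in both control libraries and, of the knockouts, over CDH7 in 1 DKO library alone, and H3K27me3 covers 96.1% or more of both genes throughout.

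On chromosome 5, CDH6 and CDH9 gained H3K27me3 in both knockouts. These 2 of 10 members compare with 3.37% of all genes called gained in SKO and 3.82% in DKO, and, of the 5 members with room for a gain, with 10.3% and 10.9% of genes of at least 100 kb with such room. No member lost H3K27me3, where 3.15% of all genes did in SKO and 3.0% in DKO. The libraries differ in reads inside H3K27me3 domains, at 50.3 and 48.5 M in sgControl, 70.7 and 59.9 M in SKO, and 69.3 and 47.9 M in DKO. The part of these read numbers in the gains was not tested.

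CDH6, a cadherin of kidney and neural crest at chr5:31193686-31329146, had 0% H3K27me3 in both sgControl libraries, 100% in both SKO libraries, and 100% and 97.0% in DKO. The limma adjusted p was 6.17e-06 in SKO and 6.29e-06 in DKO. The gene sat in a single domain of 346 kb in the first SKO library (chr5:31042401-31388000), 252 kb in the second, and 434 kb in the first DKO library. The second DKO library had 2 domains over the gene, the wider of 289 kb. Read density over CDH6 was 0.962 to 0.999 times the mean of the library's domains, so these were average H3K27me3 domains in that respect. They stopped short of DROSHA, the gene of the microRNA-processing nuclease 71.3 kb beyond CDH6, which had 0% H3K27me3 in all 6 libraries.

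H3K9me3 over CDH6 was patchy and did not separate the genotypes. It covered 34.2% and 9.45% in sgControl, 15.0% and 23.6% in SKO, and 35.4% and 17.7% in DKO. The ranges overlapped in every comparison. Of 10.4 kb of CDH6 under H3K9me3 in both control libraries, all gained H3K27me3 in both SKO libraries, and 7.2 kb kept H3K9me3 in both as well.

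CDH9, a cadherin of kidney and of hippocampal synapses at chr5:26880597-27038586, had 0% H3K27me3 in both sgControl libraries, 59.5% and 48.9% in SKO, and 51.6% and 31.0% in DKO. The difference was 54.2 points in SKO (SE 8.78; limma adjusted p = 0.0149) and 41.3 points in DKO (adjusted p = 0.0291). Unlike the wide domains over CDH6, these were 3 to 5 separate domains per library, at most 58.4 kb wide, with a read density of 0.608 to 0.681 times the library mean. With only the upper 50% of domains by score, or with all lists brought to equal covered length, the gain in SKO was 7.47 points and that in DKO 0, and the gene was no longer called.

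H3K9me3 over CDH9 was 45.2% and 15.2% in sgControl and 0% in all 4 knockout libraries. The mean difference was -30.2 points (SE 11.1; limma adjusted p = 0.131 in SKO and 0.140 in DKO), and the lower control library kept it from the call. The start site of CDH9 carried no H3K9me3 in any library. H3K27me3 reached its 5 kb window only in SKO, at 59.9% and 100%, and was 0% there in sgControl and DKO. The gains over the body of this gene in DKO therefore lay away from the sequence printed for it.

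CDH10, a brain cadherin at chr5:24487100-24644978, stayed almost free of H3K27me3. It had 0% in sgControl, 5.57% and 0% in SKO and 0% in DKO. Its H3K9me3 was 21.3% and 15.2% in sgControl, 10.6% in both SKO libraries, and 6.59% and 7.09% in DKO, in steps that did not overlap. limma gave -7.60 points in SKO (adjusted p = 0.102) and -11.4 in DKO (adjusted p = 0.0437). Each knockout library held 1 domain, 16.8 kb in both SKO libraries and 10.4 and 11.2 kb in DKO. These lay within the 24 kb domain of the second sgControl library, at chr5:24528801-24552800. The 2 sgControl libraries had no marked base in common on CDH10, whereas 16 kb was marked in both SKO libraries and 10.4 kb in both DKO libraries. The knockout domains were dense in reads, at 0.979 and 1.01 times the library mean in SKO and 1.32 and 1.37 in DKO. The control domains stood at 0.768 and 0.702.

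CDH12 and CDH18, both brain cadherins, are the giants of the group at 1.10 Mb each, on chr5:21750673-22853344 and chr5:19471296-20575713. Neither passed the call in any comparison of the full lists, and their H3K27me3 lay in 14 to 28 separate domains per library. CDH12 had 70.5% and 73.5% H3K27me3 in sgControl, 60.6% and 61.3% in SKO, and 60.8% and 62.3% in DKO. The knockout libraries sat below both controls, and limma gave -11.1 points in SKO (SE 1.30; adjusted p = 0.00606) and -10.5 in DKO (adjusted p = 0.00675). With all H3K27me3 lists brought to equal covered length the differences were -49.5 and -49.7 points, and CDH12 was then called lost in both knockouts. The shortest list is an sgControl one of 1058 Mb, and the knockout lists held 1198 to 1225 Mb. Low-scored domains were thus dropped mostly from the knockouts, and the part of this in the larger differences was not tested.

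CDH18 had higher values in the knockouts, with 71.3% and 66.0% in sgControl, 81.2% and 77.2% in SKO, and 78.2% and 72.3% in DKO. Here limma gave +10.6 points in SKO (adjusted p = 0.0843) and +6.62 in DKO (adjusted p = 0.216). With the replicate number as a block the limma adjusted p was 0.00645 in SKO and 0.0149 in DKO, but the numbers did not pair the libraries. The longest stretch of CDH18 that was free in both controls and marked in both SKO libraries was chr5:19772001-19808000, 36 kb, and a stretch of 44 kb that holds it was the longest in DKO. In CDH12 the stretches absent from both knockout libraries and present in both controls were 12 in each knockout, the longest 14.4 kb.

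H3K9me3 was sparse on both giants, and lower in the knockouts. CDH18 had 6.59% and 10.9% in sgControl, 0% in SKO, and 1.81% and 0% in DKO (limma adjusted p = 0.0466 in SKO and 0.0648 in DKO). CDH12 had 2.18% and 8.20% in sgControl, 0% in SKO, and 1.38% and 0% in DKO (adjusted p = 0.220 and 0.296). The start windows of both genes were 100% under H3K27me3 in all 6 libraries.

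The members on chromosome 16 stayed under H3K27me3. CDH8, a cadherin of developing neurons at chr16:61647250-62036438, had 95.3% and 94.2% in sgControl, 89.3% and 91.8% in SKO, and 91.8% and 87.3% in DKO. CDH11, the cadherin of osteoblasts and mesenchyme at chr16:64943753-65123744, had 100% in both sgControl libraries, 96.6% and 98.4% in SKO, and 93.9% and 97.8% in DKO. Both genes were lower in the knockouts without overlap, with mean differences from -2.52 to -5.24 points, and limma gave an adjusted p of 0.193 for CDH8 and 0.324 for CDH11 in SKO.

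H3K9me3 was slight on these genes. CDH8 had 4.11% and 10.3% in sgControl and 0% in the knockouts, and CDH11 had 0% everywhere except 10.2% in the first DKO library. The start window of CDH8, whose upstream sequence has the 19 CG dinucleotides, was 100% under H3K27me3 in all 6 libraries and under H3K9me3 only in the second sgControl library, at 30.4%.

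Counting every difference without overlap, whatever its size, H3K9me3 was lower in 8 of 10 members in SKO and in the same 8 in DKO, and higher in none. All genes gave 9.97% and 10.2% lower, but most genes carry no H3K9me3. Among genes of at least 100 kb with some H3K9me3 in both controls, 53.5% and 54.0% were lower, beside 8 of 9 members. For H3K27me3, 3 members were lower and 3 higher in SKO, against 7.35% and 5.2% of all genes, and the same number each way in DKO, against 7.08% and 5.65%. Among long genes with room the shares were 49.0% and 15.8% in SKO and 47.8% and 16.5% in DKO, beside 3 of 7 members and 3 of 6. SKO and DKO were compared with the same sgControl libraries, so their counts are not independent of each other.

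DKO did not differ from SKO at any member by the call, in either mark. Of all genes, 1.34% were lost and 1.46% gained in H3K9me3 between these genotypes, and 0.365% and 0.726% in H3K27me3. Without regard to size, 1 member was lower in DKO for H3K9me3, CDH10, and 1 higher, CDH20, against 9.13% and 6.69% of all genes, and no member was separated for H3K27me3, against 2.26% of all genes lower and 3.69% higher. limma passed no member at the adjusted threshold in this comparison, and CDH20 H3K9me3 alone was under 0.05 before adjustment. A comparison that misses the call does not show that SKO and DKO marks are alike.

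The marks were then read together, position by position, as the length marked in both libraries of a genotype. The ChIPs are separate, so a base under both marks need not carry both in the same cell. Over the 10 genes, both marks together covered 369 kb in the controls, 130 kb in SKO and 174 kb in DKO. H3K27me3 alone covered 1960, 2355 and 2205 kb, and H3K9me3 alone 31.2, 16.0 and 10.4 kb. In control cells H3K9me3 on these genes thus lay mostly where H3K27me3 lay too, though not at CDH6, CDH9 and CDH10, where control H3K27me3 was 0%.

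**Figure D3:**
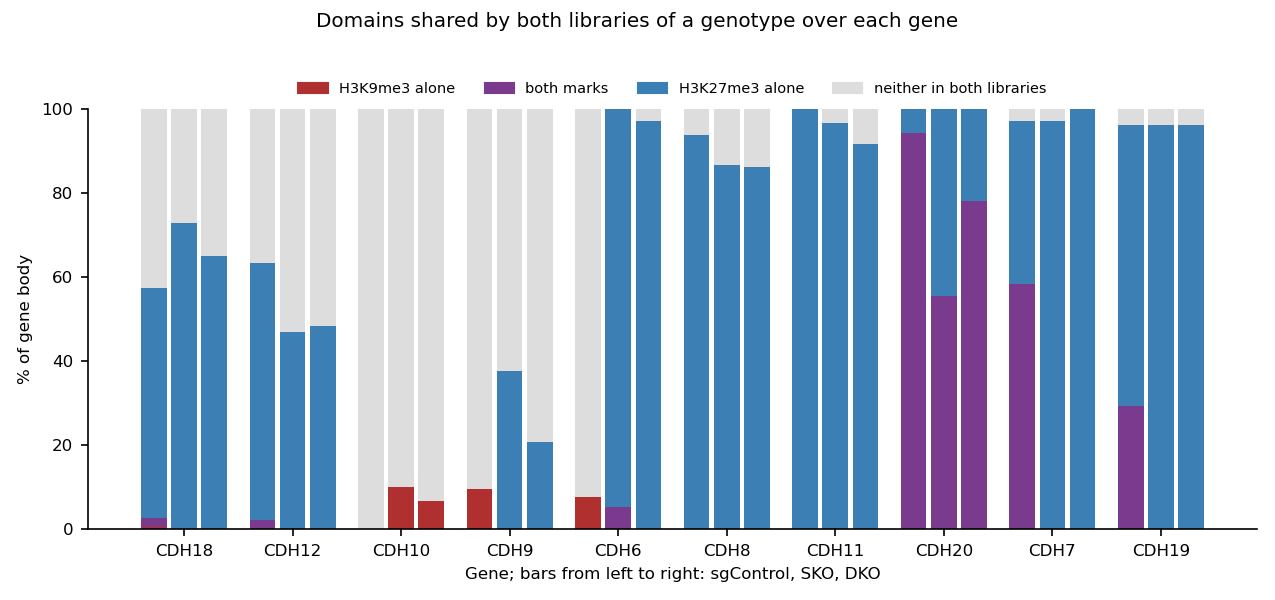
Share of each gene body under H3K9me3 alone, both marks, H3K27me3 alone or neither, counting only bases marked in both libraries of a genotype. For each gene the bars from left to right are sgControl, SKO and DKO, and the part under both marks at CDH7 and CDH19 is present only in the sgControl bar.

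CDH20 held the most, with both marks on 210 kb in the controls, on 123 kb in SKO and on 174 kb in DKO. CDH7 had 81.7 kb and CDH19 30.1 kb in sgControl, and neither had any in the knockouts. Those bases did not become unmarked: at CDH7 and CDH19 all of them were under H3K27me3 before and after.

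Over all members 278 kb that carried H3K9me3 in both controls did not in both SKO libraries, and 91.4% of that length was under H3K27me3 in both genotypes. In DKO the length was 233 kb and the share 83.5%. Over the genome the shares were 60.6% in SKO and 49.8% in DKO. In the controls 369 kb of the members lay under both marks and 31.2 kb under H3K9me3 alone. Most of the length that could be lost was thus already under H3K27me3, and the matching control lengths were not computed for the genome. Of the members' length, 4.60% in SKO and 9.63% in DKO came under H3K27me3 in both knockout libraries without having it in both controls, beside 15.9% and 16.0% over the genome. These are lengths on 10 genes, and CDH20 and CDH7 supply most of them. The shares depend on the setting. Counting bases marked in either library of a genotype, 76.4% in SKO and 75.2% in DKO was under H3K27me3 in both genotypes, against 60.6% and 49.0% over the genome. The shares newly under H3K27me3 were then 12.1% and 11.6%, against 16.4% over the genome in each knockout.

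The gain of H3K27me3 was measured more strictly, as bases free of it in both controls and marked in both knockout libraries, a rule chosen after the data were seen. These came to 266 kb of the members in SKO and 240 kb in DKO. CDH6 supplied 135 kb of this in SKO and 131 kb in DKO, and CDH9 59.6 and 32.8 kb. CDH18, which was not called, had 67.2 and 72 kb. Of the summed length, 6.61% in SKO and 9.32% in DKO had carried H3K9me3 in both controls, against 48.6% and 47.4% over the genome. Counting bases marked in both controls, the members had 31.2 kb under H3K9me3 alone and 1334 kb under neither mark. Little control H3K9me3 thus lay where H3K27me3 could be gained, and the same lengths were not computed for the genome. Such shares therefore do not show whether gains avoid former H3K9me3. At CDH9, of 15.2 kb under H3K9me3 in both controls and in no knockout library, 7.2 kb was newly under H3K27me3 in SKO and 12 kb in DKO. When a base marked in 1 of the controls also counted as free, the members' length was 526 kb in SKO and 467 kb in DKO, CDH18 made up 273 kb of the former, and the shares on control H3K9me3 were 3.80% and 4.79%. Counting bases marked in either library of a genotype gave shares of 25.1% and 28.4%, and counting only the upper 50% of domains by score, in both libraries, gave 0 in both. That 0 was fixed in advance, since under this setting 0 kb of the members lay under H3K9me3 alone in the controls.

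The surroundings of the genes were measured the same way. In the 1 Mb on either side of CDH7, leaving other members out, H3K9me3 covered 74.9% and 68.4% in sgControl, 1.82% and 2.15% in SKO, and 11.8% and 10.3% in DKO. Around CDH19 the flanks had 70.7% and 64.3%, then 0% and 0.818%, then 7.58% and 4.86%. These flanks share sequence, since the genes lie 611 kb apart. Around CDH20 the flanks had 78.3% and 73.1% in sgControl, 38.0% and 38.3% in SKO and 55.5% and 52.8% in DKO, a wider gap than over the gene itself.

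**Figure D4:**
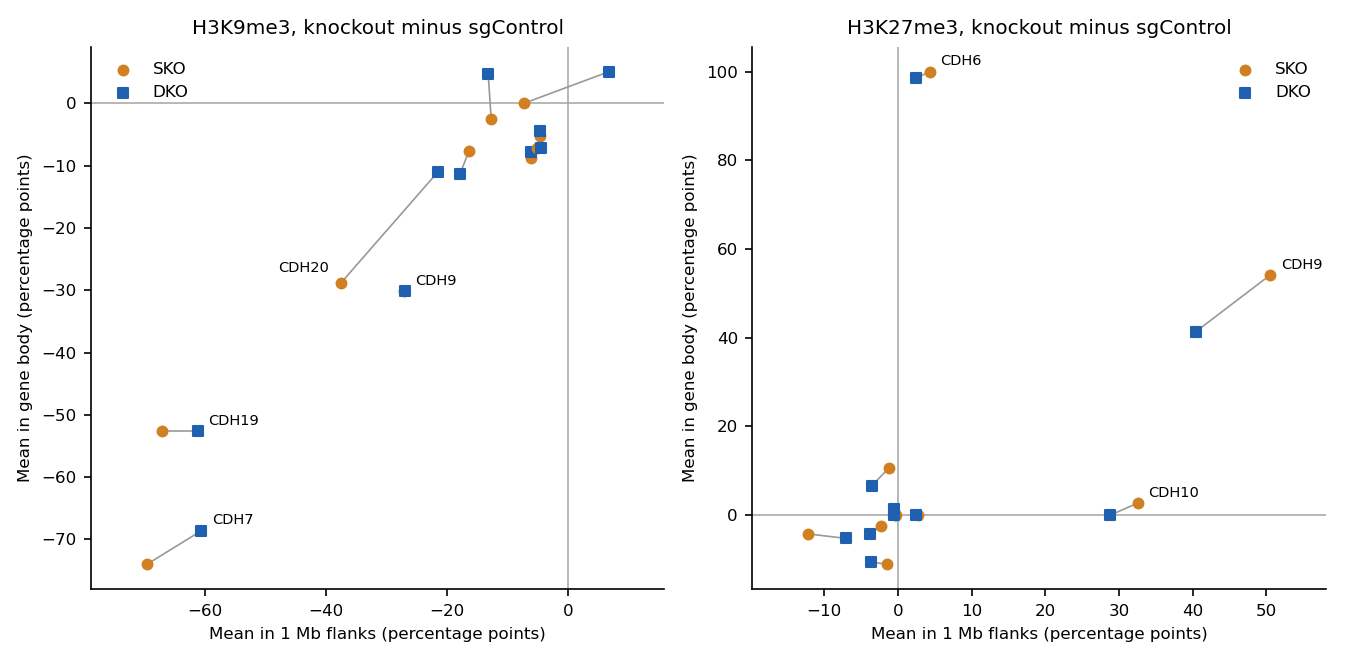
Mean difference from sgControl in the gene body (vertical, percentage points) against that in the 1 Mb on either side of the gene (horizontal, percentage points), for H3K9me3 on the left and H3K27me3 on the right, 1 circle (SKO) and 1 square (DKO) per gene, joined by a line. For H3K9me3 CDH7 and CDH9 lie near the diagonal, and at CDH19 and CDH20 the flanks differ more than the body. For H3K27me3 CDH6 is high without its 1 Mb flanks and CDH10 is flat beside flanks that are higher.

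For H3K27me3 the members on chromosome 5 differed. The 1 Mb flanks of CDH9 had 0% in both sgControl libraries, 53.2% and 47.9% in SKO, and 46.1% and 34.7% in DKO, so gene and flanks differed by similar amounts. The flanks of CDH10 did so without the gene. Its 1 Mb flanks had 22.7% and 18.8% in sgControl, 53.7% and 53.0% in SKO, and 54.4% and 44.7% in DKO, while its body stayed at 5.57% or less. At CDH6 the gain was local. Its 100 kb flanks had 7.22% and 0% in sgControl and 77.8% to 79.8% in the knockouts, and its 1 Mb flanks had 38.6% and 36.1% against 38.8% to 41.9%.

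Read density was also compared inside domains that all 6 libraries of a mark share. This leaves out every stretch that lost or gained the mark, so it cannot show whether these regions shifted. Over the members' span plus 5 Mb on chromosome 18 the mean H3K9me3 density relative to other chromosomes was 0.891 times that of sgControl in SKO and 0.949 times in DKO, and over that on chromosome 5 it was 1.05 and 0.997 times. On chromosome 16 the ratios were 1.42 and 1.52, but only 0.161 Mb was shared by all 6 H3K9me3 libraries, too little to read. Over whole chromosomes the H3K9me3 ratios in SKO and DKO were 1.19 and 1.15 on chromosome 5 and 1.16 and 1.22 on chromosome 16. On chromosome 18 they were 0.912 and 0.958. For H3K27me3 the ratios over the members' spans on the 3 chromosomes ran from 0.955 to 1.00.

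The nearest protein-coding genes place the members. MC4R, the melanocortin receptor gene 961 kb below CDH20, had 100% H3K9me3 in both sgControl libraries and 0% in all 4 knockout libraries, with H3K27me3 at 100% throughout. RNF152, 252 kb above CDH20, kept 90.7% to 100% H3K9me3. DSEL, 902 kb above CDH19, had 100% H3K9me3 in sgControl and in DKO and 0% in both SKO libraries. CDH5, the endothelial cadherin 1.24 Mb above CDH11, lost H3K27me3, with 52.5% and 55.9% in sgControl and 0% in the knockouts.

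Other neighbours were not called. PRDM9, the gene between CDH12 and CDH10, had 100% H3K27me3 in sgControl, 100% and 80.5% in SKO and 100% and 35.0% in DKO. SERPINB8, GOT2, H3Y1 and LOC124901178 passed no call in either mark. The nearest coding neighbours of CDH9 lay 2.24 and 1.89 Mb away, and those of CDH8 2.91 Mb away on both sides.

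The 12-library patterns of CDH6, CDH7, CDH9 and CDH20 were set beside all other genes of at least 50 kb by the mean absolute difference in percentage points. CDH7 was nearest to ABCC9 on chromosome 12, at 2.34 points. CDH20 was nearest to SNTG2 on chromosome 2, at 2.35, CDH9 to COL25A1 on chromosome 4, at 4.70, and CDH6 to PTPN13 on chromosome 4, at 5.31. PTPN13 had 0% H3K27me3 in sgControl and 97.8% to 100% in the knockouts. These likenesses over 12 libraries are a description. CDH8, CDH10, CDH11, CDH12 and CDH18 spanned under 25 points in both marks and were not matched.

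SETDB1 peaks were nearly absent from the members. CDH8 had 1 peak in the first WT library, at chr16:61887575-61888497 with a −log10 p of 7.72, and CDH12 had 2 in the second, at chr5:22044305-22044610 and chr5:22779485-22779876 with −log10 p of 7.73 and 5.33. None was found in both libraries. That is 0.271 peaks per Mb in the first library (95% exact Poisson interval 0.00686 to 1.51) and 0.542 in the second (0.0656 to 1.96), counting error only. All genes had 9.87 and 10.1 peaks per Mb of gene body, and genes of at least 100 kb had 6.72 and 6.83. These count peaks up to 2 kb outside the body, which raises the rate of short genes most. With peaks on the body alone the rates were 8.74 and 8.99 for all genes and 6.51 and 6.62 for the long ones, and those of the members were unchanged. A peak was present on 1 of 10 members in each library, on 26.8% and 26.7% of all genes, and on 56.1% and 56.5% of genes of at least 100 kb.

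Among the other cadherin families, all 7 desmosomal cadherins (DSC1, DSC2, DSC3, DSG1, DSG2, DSG3 and DSG4), which build desmosomes from a cluster on chromosome 18, lost H3K9me3 in SKO, and all but DSG2 did in DKO. They sit side by side and are not independent. DSC1 also gained H3K27me3, from 0% in both sgControl libraries to 100% and 88.1% in SKO and 100% in DKO. Of 5 type I classical cadherins, CDH2, the N-cadherin gene also on chromosome 18, lost H3K9me3 (97.7% and 78.7% in sgControl, 0% in all 4 knockout libraries). CDH4, the R-cadherin gene, was called higher only in DKO against SKO, at 78.1% and 83.3% against 52.5% and 38.2% (limma adjusted p = 0.0611). CDH1, the E-cadherin gene, passed no call.

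Of the 3 other type II genes, CDH5 was called as above, and CDH22 and CDH24 were not. Of 5 further cadherins, CDH26 gained H3K9me3 in both knockouts, CDH13 gained it in DKO, and CDH17, the intestinal cadherin, gained H3K27me3 in both. Of 12 non-clustered protocadherins, 4 lost H3K9me3 in SKO (PCDH7, PCDH9, PCDH17 and PCDH20) and 2 in DKO (PCDH7 and PCDH9), and PCDH9, PCDH17 and PCDH20 were higher in DKO than in SKO. For H3K27me3, PCDH18 and PCDH19 gained it and PCDH1 lost it in both knockouts, and PCDH10 lost it in DKO and was lower there than in SKO. Of 9 catenins and junction partners, CTNNB1, the β-catenin gene, gained H3K9me3 in both knockouts, from 0% to between 39.1% and 46.9%, and AFDN lost both marks in SKO.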

How the data were processed

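ChIP-seq domains of H3K9me3 and H3K27me3 in 12 libraries, and SETDB1 peaks in 2, were analysed on hg38. The labels' protocols describe formaldehyde fixation, sonication, Drosophila spike-in chromatin and Nextera XT libraries. The submitters' processing notes name the builds hg38 and dm6, the domain caller SICER, deepTools 3.5.6, FastQC 0.12.1 and Trim Galore 0.6.10. The sources used here give no aligner, read filter, threshold or SETDB1 peak caller. The deposited domain lists hold, per the file headers, a read count and a score per domain, made per library. The counts are not normalised, and no spike-in factor is in the lists, so total amounts of a mark cannot be compared. The deposited peak lists hold a score, a fold and a −log10 p and q per peak, per library.

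Gene spans and start sites came from RefSeq (GRCh38.p14). The percent of each gene body inside domains was computed per library with Python 3.11.15, numpy 2.4.6 and pandas 2.3.3, figures were drawn with matplotlib 3.10.9, and limma 3.58.1 (R 4.3.3) was fitted to the percentages without a block. Scripts were tested on simulated data. Domains carry no strand, so a mark cannot be assigned to one of 2 overlapping genes. SETDB1 peaks were assigned within 2 kb of a gene body. Named genes are the 10 members, their nearest coding neighbours, genes of the fixed lists that were called, and, for members spanning at least 25 points, the nearest gene in pattern. A few listed genes without a call are also named as examples. A gene that this rule names is not reported here. The members, though listed by name, and the gene lists were chosen with earlier results of these data known. Replicate numbers in the labels were checked for pairing and not used. Alternatives changed the minimum difference (10 or 50 points), the test, the domains kept, the window and the libraries.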

Additional observations from a re-analysis of the deposited data

Results flagged for a closer look

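DKO and SKO differed in H3K9me3 at 4 genes that are not members, each called and each past limma's adjusted threshold for the difference itself. DSEL, the coding gene beyond CDH19, had 100% in both sgControl and both DKO libraries and 0% in both SKO libraries, a difference of 100 points (adjusted p = 2.96e-05). PCDH9, a protocadherin, had 62.9% and 62.2% in DKO against 18.9% and 16.3% in SKO, a difference of 45.0 points (adjusted p = 0.00439). DSG2, the desmoglein present in many tissues, had 70.8% and 61.4% against 0% in both SKO libraries, a difference of 66.1 points (adjusted p = 0.0182). PCDH17 had 78.7% and 69.9% against 11.3% and 22.3%, a difference of 57.5 points (adjusted p = 0.0190). With the replicate number as a block, limma's adjusted p was 0.00194 for DSEL, 0.0237 for PCDH9, 0.0870 for DSG2 and 0.0885 for PCDH17, so DSG2 and PCDH17 no longer passed. No member of the type II cadherins was flagged.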

How the results depend on the processing

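The H3K9me3 calls at CDH7 and the H3K27me3 calls at CDH6 were made under every alternative run. CDH19 and CDH9 were not. Counts of members called lost in H3K9me3 in SKO (2 in the main analysis) were 4 with a minimum difference of 10 points, 1 with 50 points and 1 at equal covered length of the lists. In DKO (2) they were 1 with 50 points, 1 with only the better-scored 50% of domains and 1 at equal covered length. The upper 50% also gave 1 member gained in DKO against SKO (0), CDH20, at 38.8 points. Members gaining H3K27me3 (2 in each knockout) were 1 with 50 points, 1 with the upper 50% of domains and 1 at equal covered length, in SKO and in DKO alike. Members losing H3K27me3 (0) were 1 by limma and 1 at equal covered length in both knockouts, CDH12 each time, with differences of -49.5 and -49.7 points at equal length. For H3K27me3 the equal-length step drops domains mostly from the knockout lists.

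Leaving out 1 library gave 2 to 4 members lost in H3K9me3 in SKO and 2 to 3 in DKO, 2 to 2 gaining H3K27me3 in each knockout, and 0 to 0 for every other count. The 4 came without sgControl replicate 2. Such fits leave 1 library in a group, which is then a rule on single values without a test. With the replicate number as a block in limma, the lost counts in H3K9me3 were 1 in SKO and 1 in DKO, and those in H3K27me3 1 and 1. Under the block 3 members gained H3K27me3 in each knockout, CDH18 besides CDH6 and CDH9. Deviations of same-numbered libraries correlated at -0.013 to 0.050 over genes, so the numbers did not pair the libraries. No difference of a single member was reversed. Counting each member, comparison and alternative once, 682 kept their side of the threshold, 22 passed it only in the alternative and 16 only in the main analysis. The cause of these changes was not tested.

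The 2 libraries per group and the domain calls without a normalised signal limit what can be read. A call needs at least 25 points, so 7 members could not be called lost in H3K9me3 and 5 could not be called gained in H3K27me3.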
